A study of Homo sapiens with 6 samples.

Results

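The genes described are 10 regulators of the G1 phase, namely the D-type cyclin genes CCND1, CCND2 and CCND3, the cyclin E gene CCNE2, the kinase genes CDK4 and CDK6, and the inhibitor genes CDKN1A, CDKN1B, CDKN2C and CDKN2D. They were taken by gene name from a table of 33981 genes, each name matched 1 row, and all 10 passed the filter on low counts that left 19182 genes for testing. RNA was sequenced from THP-1, a human monocytic leukemia line, after lentiviral infection with scrambled shRNA (3 samples) or with shRNA against NFIC (3 samples). GFP-positive cells were sorted 4 days after infection, so that the controls had also been infected and sorted. The study's figure legends give the hairpin as sh494. The sample labels and those legends name the control as scrambled, and the sequencing methods name it as a GFP only vector. The model is limited to a single cell line and a single hairpin, and nothing in the labels says whether the 3 samples of a group came from separate infections, so the p-values measure only the spread between these samples.

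Progression through G1 is driven by D-type cyclins, which bind CDK4 or CDK6 and begin the phosphorylation of the retinoblastoma protein. This frees E2F factors, which switch on genes for DNA synthesis and the cyclin E genes, and cyclin E then activates CDK2. The INK4 inhibitors, which include p18 (CDKN2C) and p19 (CDKN2D), bind CDK4 and CDK6 directly, whereas the CIP/KIP inhibitors p21 (CDKN1A) and p27 (CDKN1B) bind cyclin-CDK complexes and are best known as inhibitors of CDK2. In myeloid cells CDK6 and cyclin D3 are prominent, and p21 and p27 are known to rise when monocytic precursors leave the cycle and mature.

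The sequence targeted by sh494 is shown because it defines the knockdown group. It lies on GRCh38 at chr19:3449042-3449062 (plus strand), in exon 7 of the canonical NFIC transcript, within the coding sequence of 7 of the 8 annotated transcripts that carry it, and the capitals mark the whole target.
sh494 target: GATGGACAAGTCACCATTCAA

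The 250 bases before the transcription start are shown for CCND3, CDKN1A and CDKN1B, which rose most, and for CDK4, the member whose change did not pass the test. They are RefSeq promoter windows of build GRCh38.p14 on the strand of the gene, chosen as the start nearest to that of the canonical transcript, and capitals mark the half-site TTGGC (or GCCAA on the other strand) that NFI proteins bind. The windows lie at chr6:41941809-41942058 (minus strand), chr6:36678464-36678713 (plus strand), chr12:12717118-12717367 (plus strand) and chr12:57752311-57752560 (minus strand).
CCND3: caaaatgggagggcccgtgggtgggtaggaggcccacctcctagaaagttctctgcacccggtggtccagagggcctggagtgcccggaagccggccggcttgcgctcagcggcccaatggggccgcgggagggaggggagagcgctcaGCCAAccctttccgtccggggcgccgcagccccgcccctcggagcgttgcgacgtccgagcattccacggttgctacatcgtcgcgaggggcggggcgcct
CDKN1A: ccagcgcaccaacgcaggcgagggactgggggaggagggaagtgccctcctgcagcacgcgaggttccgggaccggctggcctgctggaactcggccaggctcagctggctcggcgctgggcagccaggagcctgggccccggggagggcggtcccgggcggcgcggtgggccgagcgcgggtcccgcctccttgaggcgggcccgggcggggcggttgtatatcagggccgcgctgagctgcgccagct
CDKN1B: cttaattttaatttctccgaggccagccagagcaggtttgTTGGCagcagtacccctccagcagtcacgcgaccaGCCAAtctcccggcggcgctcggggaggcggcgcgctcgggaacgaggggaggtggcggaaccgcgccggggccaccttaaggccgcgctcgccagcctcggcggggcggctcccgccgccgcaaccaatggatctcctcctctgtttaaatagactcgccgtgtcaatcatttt
CDK4: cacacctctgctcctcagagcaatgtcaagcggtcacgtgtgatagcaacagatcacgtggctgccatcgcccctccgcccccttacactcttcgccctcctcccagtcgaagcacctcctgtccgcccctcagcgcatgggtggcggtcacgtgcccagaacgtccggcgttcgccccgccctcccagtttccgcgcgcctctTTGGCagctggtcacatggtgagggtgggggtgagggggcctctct

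RefSeq windows of 300 bases, the last 50 of them after the start, were matched for 7 of the 10 genes and searched on both strands. The half-site was found in 6 of the 7, in all but that of CDKN1A, and in 45.6% of all 35116 windows. The full palindrome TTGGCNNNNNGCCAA was in none of the 7 and in 0.0285% of all windows, and the E2F motif TTTCGCGC or TTTGGCGC was in none of the 7 and in 1.15% of all. The E-box CACGTG, which reads the same on both strands, was in the windows of CDK4, CDK6 and CDKN2C (3 of 7, against 7.26% of all windows), with 3 copies upstream of CDK4. The half-site is contained in the palindrome and in the second E2F motif. These matches describe letters and do not show that a factor binds there.

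Total counts lay between 20369543 and 24809720 per sample. NFIC itself fell to 50.1% of the control level, with a log2 fold change of -0.99 ± 0.072 (SE; edgeR, adjusted p = 3.73e-09). All 12 monocytic and myeloid markers listed for THP-1 were detected. With NFIC shRNA 3 of them were higher and 7 lower (edgeR, adjusted p under 0.05), beside 59.9% of all genes tested called. LYZ, ITGAM and CD14 rose with log2 fold changes of 0.72, 0.99 and 0.65. Among those that fell, CD68, CD33 and CD36 had -1.01, -0.97 and -0.85. The summed level of the 12 overlapped between the groups, at 2254 to 2403 CPM with scrambled shRNA and 2272 to 2373 CPM with NFIC shRNA. Rises and falls enter that sum together, so it does not show that the markers were unchanged. Markers of T, erythroid and epithelial cells were low. CD3D, HBB and HBA1 had at most 3 counts in any sample, and EPCAM and KRT18 at most 17. KRT8 fell by 2.04 on the log2 scale, from 93, 114 and 98 counts to 18, 36 and 19. The part of these markers in the results was not tested.

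With NFIC shRNA, 7 of the 10 genes rose, 2 fell and CDK4 did not pass the test (edgeR's quasi-likelihood test, adjusted p under 0.05 over all genes tested). The inhibitor genes CDKN1A, CDKN1B, CDKN2C and CDKN2D all rose, as did CCND3, CDK6 and CCNE2, whereas CCND1 and CCND2 fell. The share of called genes was high in the whole table, at 59.9% of all genes tested, with 29.6% higher and 30.3% lower under TMM scaling, so that 9 called genes of 10 stand against a background in which a call was the more common outcome. On CPM, the count scaled to a common library size with TMM factors, the samples of the groups did not overlap for any of the 10 genes, against 65.2% of all genes tested. The median log2 fold change of the 10 genes was 0.39, compared with -0.011 over all genes tested, and the median absolute value was 0.61, compared with 0.37. Only CCND1 changed by more than 1 on the log2 scale (1 of 10), while 12.0% of all genes tested did. In bulk RNA, a different share of cells in a phase of the cycle and a different amount of RNA per cell cannot be told apart.

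**Figure D1:**
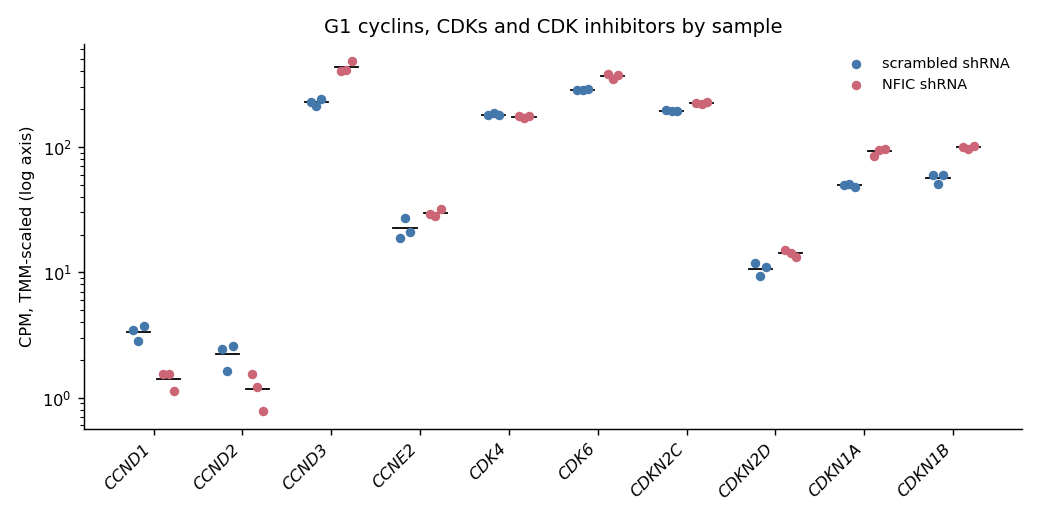
CPM of the 10 genes on a log axis, with 1 point per sample (scrambled shRNA in blue, NFIC shRNA in red, 3 samples each) and a line at the group mean. CCND1 and CCND2 lie near 1 to 4 CPM, CCND3, CDK4, CDK6 and CDKN2C above 100, and the points of the 2 groups do not overlap for any gene.

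The D-type cyclin genes moved in opposite directions. Gene positions are those of GENCODE release 44 on GRCh38. CCND3 (ENSG00000112576, chr6:41934934-42050357), which encodes cyclin D3, had 227, 211 and 242 CPM in the 3 controls and 403, 410 and 481 CPM after NFIC knockdown. All knockdown samples lay well above all controls, and NFIC shRNA replicate 3 was the highest. The mean went up, from 227 ± 15.4 CPM to 431 ± 42.8 CPM (SD, n = 3 per group), which is a log2 fold change of 0.93 ± 0.068 (SE; edgeR, adjusted p = 9.02e-09).

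CCND1 (ENSG00000110092, chr11:69641156-69654474), which encodes cyclin D1, was a low-count gene with 75, 70 and 80 counts with scrambled shRNA, against 32, 36 and 26 with NFIC shRNA. Every knockdown count was less than every control count by more than 30 reads. On the CPM scale 3.35 ± 0.458 became 1.41 ± 0.245 (SD, n = 3 in each group), and the log2 fold change was -1.24 ± 0.21 (SE; edgeR, adjusted p = 5.88e-05).

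CCND2 (ENSG00000118971, chr12:4269771-4305353), which encodes cyclin D2, had 53, 40 and 55 counts with scrambled shRNA, against 32, 28 and 18 with NFIC shRNA. The groups came close, at 1.63 CPM in scrambled replicate 2 and 1.55 CPM in NFIC shRNA replicate 1, but did not overlap. For CCND2 the log2 fold change was -0.91 ± 0.27 (SE; edgeR, adjusted p = 0.00768), and this was the least precise estimate of the 10. The relative spread between replicates was 23.2% of the mean with scrambled shRNA and 32.8% with NFIC shRNA, against 6.80% and 9.91% for CCND3.

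Some reads at these loci can belong to other genes. The exons of CCND2 share 999 bases with AC008012.1, a gene on the same strand with 145 to 180 counts per sample and a log2 fold change of -0.014 (adjusted p = 0.929 from edgeR). The exons of CCND1 share 497 bases with LTO1 on the opposite strand, which had a log2 fold change of -0.067 (adjusted p = 0.608 from edgeR). CDK6 shares 86 exonic bases with CDK6-AS1, which had a log2 fold change of -0.25 (adjusted p = 0.240 from edgeR), and CDKN1A shares 146 with DINOL, which had at most 3 counts in any sample. CCND2-AS1 and AL513008.1, which overlap CCND2 and CCND3, had at most 6 counts and 1 count. CDKN2C shares 617 exonic bases with ENSG00000290102, and CCND2 shares 106 with ENSG00000290063. Both of these lie on the opposite strand and have no row in the table of counts. The library kit is not described as stranded, and how reads in shared exons were assigned is not given in the sources used here.

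Levels between genes were compared per length, on the FPKM values that the authors deposited. CCND3 made up 97.3%, 97.8% and 97.3% of the summed FPKM of the D-type cyclins in the scrambled samples, against 99.2%, 99.3% and 99.6% in the NFIC shRNA samples. The share of CCND1 was 1.75 ± 0.125% and became 0.403 ± 0.102% (SD, n = 3 in each group), and that of CCND2 was 0.764 ± 0.135% and became 0.225 ± 0.0896%. The 2 genes that fell were thus minor parts of the D-type cyclin RNA in both groups, and the sum went from 39.6 ± 2.84 to 74.7 ± 7.77 FPKM (SD, n = 3 in each group). These sums are given as a description, with no test.

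The kinase partners of the D-type cyclins differed from each other. CDK6 (ENSG00000105810, chr7:92604921-92836573) had 282, 284 and 288 CPM with scrambled shRNA, against 382, 349 and 373 CPM with NFIC shRNA. The 3 controls lay within 6 CPM of one another, and the lowest knockdown sample was more than 60 CPM above them. The log2 fold change of CDK6 was 0.37 ± 0.049 (SE; edgeR, adjusted p = 4.83e-06).

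CDK4 (ENSG00000135446, chr12:57747727-57756013) had 178, 185 and 179 CPM with scrambled shRNA, against 176, 171 and 177 CPM with NFIC shRNA. The knockdown samples were all slightly lower on this scale, but the log2 fold change was only -0.050 ± 0.048 (SE; edgeR, adjusted p = 0.377). On the deposited FPKM values the groups overlapped, at 56.8 to 59.2 with scrambled shRNA and 55.1 to 57.7 with NFIC shRNA. The adjusted p came closest to the threshold with upper-quartile normalization, at 0.0513, where the log2 fold change was -0.11. CDK4 shares 1369 exonic bases with TSPAN31 on the opposite strand, and TSPAN31 had a log2 fold change of -0.11 (adjusted p = 0.0757 from edgeR).

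In FPKM, CDK6 stood at 39.9%, 38.6% and 40.5% of the level of CDK4 with scrambled shRNA, against 54.7%, 51.6% and 53.1% with NFIC shRNA, so that the groups did not overlap. The summed FPKM of both kinases was 80.7 ± 1.33 and 86.4 ± 2.56 (SD, n = 3 in each group). The sum of D-type cyclin FPKM per unit of kinase FPKM was 0.491 ± 0.0398 with scrambled shRNA and 0.864 ± 0.0772 with NFIC shRNA (SD, n = 3 in each group).

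**Figure D2:**
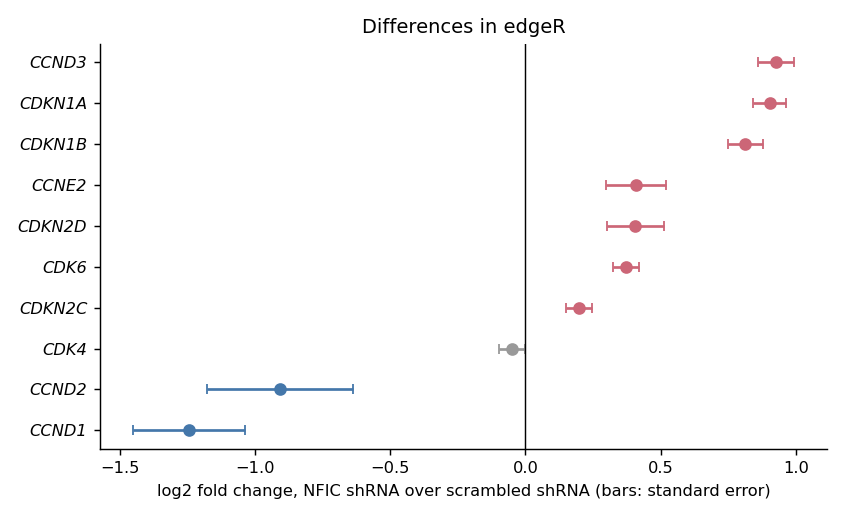
Log2 fold change of NFIC shRNA over scrambled shRNA for the 10 genes (edgeR, 3 samples in each group), with bars of 1 standard error. Red genes rose and blue genes fell at an adjusted p under 0.05, and CDK4, in grey, did not pass. The values run from -1.24 for CCND1 to 0.93 for CCND3.

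Among the inhibitor genes described, CDKN1A and CDKN1B of the CIP/KIP family had the larger log2 fold changes. CDKN1A (ENSG00000124762, chr6:36676460-36687337), which encodes p21, had 50.0, 50.1 and 47.8 CPM with scrambled shRNA, against 85.3, 95.1 and 96.2 CPM with NFIC shRNA. The controls differed by less than 3 CPM, and all knockdown samples were at least 35 CPM higher. The mean in the knockdown samples was 1.87 times that of the controls, with a log2 fold change of 0.90 ± 0.061 (SE; edgeR, adjusted p = 1.46e-09).

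CDKN1B (ENSG00000111276, chr12:12685498-12722369), which encodes p27, had 59.2, 50.8 and 59.2 CPM with scrambled shRNA, against 99.6, 95.6 and 102 CPM with NFIC shRNA. Scrambled replicate 2 was lower than the other controls, and the groups were widely apart. The log2 fold change was 0.81 ± 0.064 (SE; edgeR, adjusted p = 9.74e-09).

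The INK4 genes had smaller changes. CDKN2C (ENSG00000123080, chr1:50960745-50974634), which encodes p18, had 197, 193 and 193 CPM with scrambled shRNA, against 223, 218 and 228 CPM with NFIC shRNA. This was a small change between tight groups, since the relative spread was 0.986% of the mean in the controls and 2.18% in the knockdown samples. The log2 fold change was 0.20 ± 0.047 (SE; edgeR, adjusted p = 0.00152).

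CDKN2D (ENSG00000129355, chr19:10566460-10569059), which encodes p19, was read at 254, 229 and 236 counts with scrambled shRNA, against 308, 330 and 306 with NFIC shRNA. In CPM the controls spanned 9.30 to 11.7 and the knockdown samples 13.3 to 14.9, without overlap. The log2 fold change was 0.41 ± 0.11 (SE; edgeR, adjusted p = 0.00300). CDKN2C accounted for 90.1 ± 1.00% of the summed INK4 FPKM with scrambled shRNA and 88.7 ± 0.737% with NFIC shRNA (SD, n = 3 in each group), and here the groups overlapped.

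The summed FPKM of CDKN1A and CDKN1B went from 37.7 ± 1.66 to 68.7 ± 2.69, and that of CDKN2C and CDKN2D from 70.6 ± 1.18 to 83.2 ± 1.67 (SD, n = 3 in each group). The CIP/KIP pair made up 34.8 ± 0.674% of the summed inhibitor FPKM with scrambled shRNA and 45.2 ± 0.774% with NFIC shRNA. This share depends on the gene length, because the deposited table gives CDKN1B 2565 bases and the GENCODE release 44 annotation 9255 exonic bases. With counts per kilobase of GENCODE length and TMM library sizes, for all of these genes, the share was 24.0 ± 0.0923% and 33.2 ± 1.17%, and the CIP/KIP sum in controls was 22.5 in place of 37.7, whereas the fold between the groups was 1.84 in place of 1.82.

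CDKN1C, which encodes p57, had 3.55 ± 0.856 CPM with scrambled shRNA and 2.99 ± 1.00 with NFIC shRNA (SD, n = 3 per group), with a log2 fold change of -0.24 (adjusted p = 0.387 from edgeR). CDKN2A and CDKN2B, the other INK4 genes, had no row under these names in the table of 33981 genes. The INK4 sums and shares above therefore cover CDKN2C and CDKN2D only. Those of the CIP/KIP family leave out CDKN1C and cover CDKN1A and CDKN1B only.

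**Figure D3:**
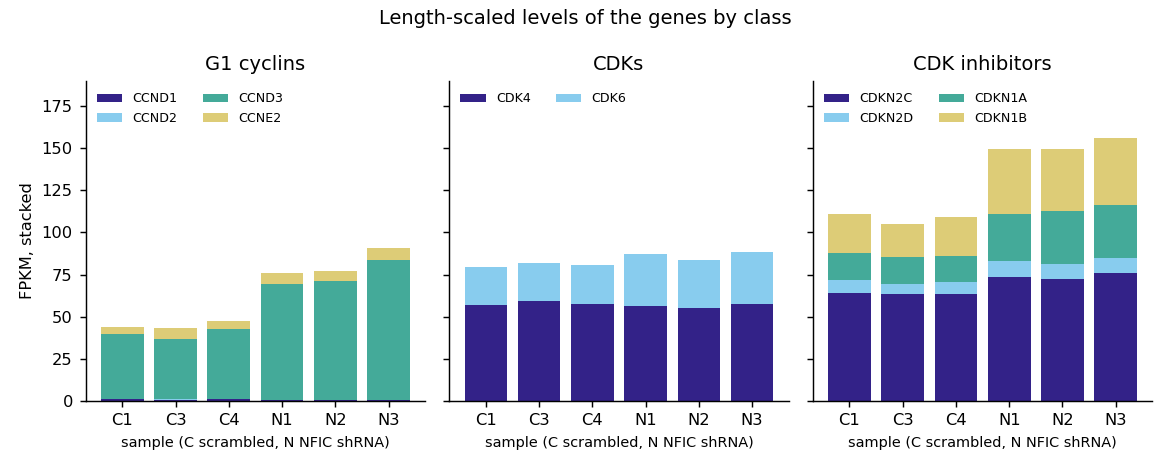
Deposited FPKM stacked by class for each of the 6 samples (C1, C3 and C4 are scrambled replicates 1 to 3, and N1, N2 and N3 are NFIC shRNA replicates 1 to 3). Nearly all D-type cyclin signal is CCND3, the 2 kinases sum to between 79.4 and 88.3, and the CDKN1A and CDKN1B segments are the ones that widen most among the inhibitors. The width of the CDKN1B segment rests on the shorter of its annotated lengths.

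In order of FPKM, the scrambled samples had CDKN2C highest at 63.6 ± 0.445, then CDK4 at 57.8 ± 1.27, CCND3 at 38.6 ± 2.69, CDK6 at 22.9 ± 0.292, CDKN1B at 21.7 ± 1.88, CDKN1A at 16.0 ± 0.389, CDKN2D at 7.02 ± 0.814, CCNE2 at 5.02 ± 0.978, CCND1 at 0.695 ± 0.0956 and CCND2 at 0.305 ± 0.0709 (SD, n = 3). The ranges of CDK6 and CDKN1B overlapped, as did those of CDKN2D and CCNE2, and the other neighbours were apart. In the NFIC shRNA samples CCND3 was at 74.3 ± 7.86 FPKM (SD, n = 3) and its range overlapped that of CDKN2C, at 73.8 ± 1.98. CDKN1B, at 38.5 ± 1.39, was then above CDK6, at 30.0 ± 1.38, and CDKN1A, at 30.2 ± 2.12, overlapped CDK6. The lower part of the order, from CDKN2D to CCND2, was the same. The place of CDKN1B rests on the shorter of its annotated lengths.

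CCNE2 (ENSG00000175305), which encodes cyclin E2, had 409, 670 and 448 counts with scrambled shRNA, against 603, 650 and 738 with NFIC shRNA. Scrambled replicate 2 stood apart from the other controls, with 27.2 CPM against 18.9 and 20.9, and lay just under the lowest knockdown sample at 28.0 CPM. The log2 fold change was 0.41 ± 0.11 (SE; edgeR, adjusted p = 0.00519), and without scrambled replicate 2 it was 0.57 (adjusted p = 4.67e-05 from edgeR). Without scrambled replicate 1 or 3 it was lower, at 0.29 and 0.36 (adjusted p = 0.0285 and 0.0300 from edgeR). The same control was high for the S-phase markers, with a sum over the 42 markers other than CCNE2 of 2809 CPM against 2226 and 2244 in the other controls. In the knockdown samples that sum was 2681, 2567 and 3113 CPM, so the groups overlapped, and its part in the change of CCNE2 was not tested.

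CCNE2 shares 1629 exonic bases with INTS8, a subunit gene of the Integrator complex on the opposite strand, which also rose, with a log2 fold change of 0.53 (adjusted p = 3.73e-06 from edgeR). Without strand, reads of the shared stretch cannot be told apart. CCNE1, the other cyclin E gene, went the other way, with 210, 362 and 227 counts with scrambled shRNA, against 152, 174 and 195 with NFIC shRNA. For CCNE1 the log2 fold change was -0.59 ± 0.14 (SE; edgeR, adjusted p = 0.00185).

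**Figure D4:**
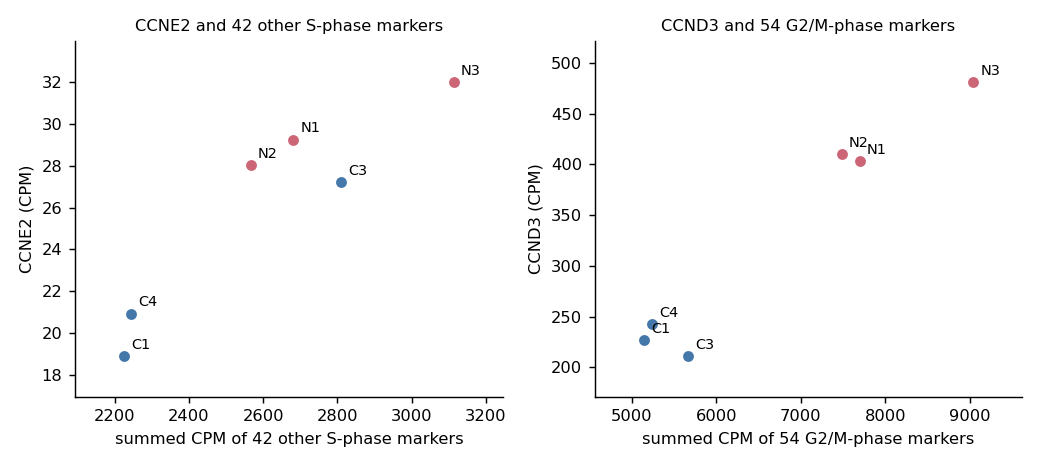
Left, CPM of CCNE2 against the summed CPM of 42 other S-phase markers. Right, CPM of CCND3 against the summed CPM of 54 G2/M-phase markers. Each point is 1 sample (scrambled in blue, NFIC shRNA in red). The control C3 lies among the knockdown samples on the S-phase axis, at 2809, whereas on the G2/M axis all controls lie at or under 5662 and all knockdown samples at or above 7488.

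The other cyclin-CDK genes of the G1/S step gave a mixed picture. CCNA1, which encodes the cyclin A of germ cells and early myeloid cells, rose from 122, 143 and 133 counts to 359, 306 and 426 counts, a log2 fold change of 1.47 ± 0.13 (SE; edgeR, adjusted p = 3.70e-08). CDC25A, a phosphatase that activates CDK2, had a log2 fold change of 0.47 (adjusted p = 0.00690 from edgeR). CDK2, CDK3 and CCNA2 had log2 fold changes of 0.065, -0.22 and 0.18 and did not pass the test. Of the CDK-activating kinase, which phosphorylates CDK4, CDK6 and CDK2, the kinase gene CDK7 fell with -0.34 and its cyclin gene CCNH rose with 0.31, while MNAT1 had 0.16 and did not pass.

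Of the 13 genes of pocket proteins and of E2F and DP factors, which lie directly downstream of the G1 kinases, 3 rose, 3 fell and 7 did not pass, with a median log2 fold change of -0.032. Over all genes tested, 29.6% rose and 30.3% fell. The pocket protein genes RB1 and RBL1 rose, with log2 fold changes of 0.39 and 0.57. E2F7, an E2F that represses, rose with 0.98, whereas E2F5, E2F1 and E2F4 fell with -0.74, -0.33 and -0.15. Of the 8 genes of the ubiquitin ligases that turn over G1 cyclins and p27, 5 rose and 2 fell, with a median of 0.37. SKP2, whose protein marks p27 for degradation, fell with a log2 fold change of -0.55 (adjusted p = 3.38e-05 from edgeR), while its cofactor CKS1B rose with 0.55. FBXW7, whose protein marks cyclin E, rose with 0.63, SKP1 rose with 0.43, and FBXO31, whose protein marks cyclin D1, fell with -0.49.

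Among the 16 E2F target genes of the G1/S transition, 6 rose, 1 fell and 9 did not pass, with a median log2 fold change of 0.14. The share called over all genes tested was 59.9%, with 29.6% higher and 30.3% lower. CDC6, MCM7 and SLBP rose with 0.95, 0.34 and 0.24. PCNA, the sliding clamp of DNA replication that p21 also binds, was the one that fell, from 1904, 2857 and 1803 counts to 768, 875 and 954 counts, a log2 fold change of -1.31 ± 0.11 (SE; edgeR, adjusted p = 1.04e-06). Of 43 S-phase markers, CCNE2 among them, 21 rose and 2 fell, with a median of 0.25. ATAD2, RPA2 and UBR7 rose with 0.70, 0.52 and 0.43, and besides PCNA the gene that fell was CDCA7, with -1.01.

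Of 54 G2/M-phase markers, 47 rose (against 29.6% of all genes tested) and 1 fell (against 30.3%), G2E3 with -0.54. Their median was 0.67, against -0.011 over all genes tested, and NEK2, PIMREG and PSRC1 rose with 1.70, 2.02 and 1.33. The sum over these markers was 5145 to 5662 CPM in the scrambled samples and 7488 to 9042 CPM in the NFIC shRNA samples, without overlap. These markers moved with the groups in the same samples in which the 10 genes were read, and their part in the changes of CCND3, CDK6 and the inhibitor genes was not tested.

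CDKN1A is a classic target of p53, and 20 other p53 target genes were examined beside it. Of these 7 rose, 5 fell and 8 did not pass, with a median log2 fold change of 0.085. The share called in this list was near the 59.9% of all genes tested. TP53INP1, BTG2 and SESN1 rose with 1.30, 1.06 and 0.53, and CCNG1, BBC3 and AEN fell with -0.60, -0.47 and -0.29. MDM2, which is induced by p53 and marks it for degradation, had a log2 fold change of 0.056 (adjusted p = 0.414 from edgeR). The summed level of the 20 genes was 556 to 567 CPM with scrambled shRNA and 538 to 602 CPM with NFIC shRNA, and the groups overlapped. Rises and falls enter this sum together, so it does not show that the genes were unchanged. From scrambled to NFIC shRNA the mean of CCNG1 fell from 145 to 95.4 CPM. Those of SESN1 and TP53INP1 rose from 33.8 to 49.1 and from 12.4 to 30.8 CPM.

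Within the gene lists used here (164 genes tested besides the members), the gene whose log2 CPM followed CDKN1A most closely over the 6 samples was BTG2 (Pearson's r = 0.996), and for CCND3 it was NEK2 (r = 0.994), as it was for CDKN1B (r = 0.990) and CDKN2C (r = 0.994). For CDK6 it was CCNA1 (r = 0.996), for CCND1 it was CDK7 (r = 0.994), and for CCNE2 it was RRM1 (r = 0.981). The values were lowest for CDK4, with SKP2 (r = 0.916), for CDKN2D, with ZMAT3 (r = 0.939), and for CCND2, with CSF1R (r = 0.940). These values describe 6 libraries in 2 groups, so that the difference between the groups enters each of them, and no test was made of them.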

How the data were processed

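THP-1 cells with scrambled or NFIC shRNA (3 samples each) were sequenced as bulk RNA. The methods state that the authors used Trim Galore for trimming and STAR for mapping to GRCh38, and made the deposited count of each gene and sample with featureCounts on the Ensembl release 96 annotation. The authors also deposited a normalized signal (the count divided by a size factor), its mean over the samples, and FPKM values, which derive from that signal and the gene length. Columns of the authors' own comparison hold a log2 fold change, a standard error, a Wald score and p-values, and were not used.

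The quasi-likelihood test of edgeR 4.0.16 in R 4.3.3 was applied to the counts, with TMM factors, robust dispersions, the tool's own filter on low counts and no replicate block. P-values were adjusted after Benjamini and Hochberg over 19182 genes, and 0.05 was the threshold. Gene positions and overlaps came from GENCODE release 44 on GRCh38. The genes and lists were chosen with earlier results of these data known, and lists were counted, not tested. Genes named are NFIC, the 10 members, genes overlapping them, the small lists in full, up to 3 genes per direction of each longer list, and the gene most like a member. MDM2 and the markers of other cell types were named outside this rule, after their values were seen. Some of the listed markers are not reported here. Alternatives were other normalizations, DESeq2 1.42.0, other filters, a threshold of 0.01, each sample left out, the replicate block, and GENCODE lengths with TMM library sizes. Total counts were 20369543 to 24809720 per sample, and counting error limits genes such as CCND2. With 3 samples per group an exact permutation test cannot give a two-sided p under 0.1.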

Additional observations from a re-analysis of the deposited data

How the results depend on the processing

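The 10 genes and NFIC kept their direction and their side of the threshold under every alternative run, and 9 of the 10 genes were called in each (edgeR or DESeq2). Over these alternatives the log2 fold change was -1.36 to -1.10 for CCND1, -1.14 to -0.67 for CCND2, 0.85 to 0.98 for CCND3, 0.31 to 0.41 for CDK6, 0.85 to 0.96 for CDKN1A, 0.74 to 0.85 for CDKN1B, 0.14 to 0.22 for CDKN2C, 0.31 to 0.47 for CDKN2D and 0.29 to 0.57 for CCNE2. Of the 9 called genes CCND2 had the highest adjusted p, 0.0402 from edgeR without scrambled replicate 3, and CDK4, which was not called, had its lowest, 0.0513, with upper-quartile normalization. All genes called numbered 9307 at a threshold of 0.01 and 11783 with no filter on low counts, against 11486. With upper-quartile normalization 4953 genes were higher and 6503 lower, against 5676 and 5810 with TMM. Relative to TMM, the other scalings moved the median log2 fold change by between -0.057 and 0.018. A fit with a replicate block called 10983 genes, and 9 of the 10. Replicates were numbered in order within each group, so the block paired C1 with N1, C3 with N2 and C4 with N3. Deviations from the group means in these pairs had correlations across genes of 0.056, -0.086 and -0.045. C3 and N3, which share a number in the sample titles, were not paired in the block and had 0.15, the highest of all pairs. The labels do not say whether samples were paired, so the replicate block is given only here. With GENCODE lengths and TMM library sizes CDK6 was again at 39.7% of the level of CDK4 in controls. Depth limits CCND1 and CCND2 most, since they had 18 to 80 counts per sample.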
